A study of Mus musculus with 2 samples.

Results

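The adrenergic receptors described here are the products of 6 genes, Adra1a, Adra1b, Adra1d, Adra2a, Adra2c and Adrb1, chosen by gene symbol out of 55536 genes in the deposited tables. Each symbol belonged to 1 gene model, and together the 6 genes had 16 annotated transcripts. The tissue was the cortex of the left cerebral hemisphere, taken from 2 male B6CASTF1/J mice (F1 hybrids of B6 and CAST) aged 36 days, and its total RNA was sequenced. Both animals carried the same cross and had no stated treatment, so they form 1 group with no comparison between conditions. Each library started from 300 ng of RNA and carried an ERCC spike-in mix whose name in the labels refers to stranded, ribosomal-RNA-reduced libraries. They held 29915463 expected counts in mouse 1 (biological replicate 1) and 27988085 in mouse 2. The labels number the mice separately but give both the same donor identifier.

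Adrenergic receptors are G protein-coupled receptors for noradrenaline and adrenaline. Alpha-1 receptors act mainly through Gq and phospholipase C, alpha-2 receptors through Gi and Go, which lower cyclic AMP and open inwardly rectifying potassium channels, and beta receptors through Gs, which raises cyclic AMP. In the cortex the ligand comes from long axons of the locus coeruleus in the brainstem, so the cells that make noradrenaline lie outside the tissue. The receptors of cortical cells are made inside it.

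All 6 receptor genes were detected, meaning a TPM (a length-corrected share of a library's transcripts) of at least 1 in both mice, as were 58.6% of 22028 protein-coding genes and 27.1% of all genes. Adra1d was the most abundant, at a TPM of 25.8 ± 2.67 (SD, n = 2), followed by Adrb1 at 19.2 ± 0.134 and Adra1b at 13.6 ± 1.47. Adra2c (10.9 ± 0.311), Adra1a (10.4 ± 0.438) and Adra2a (10.1 ± 0.290) lay close together below them. Adra1d exceeded 79.6% of all protein-coding genes, detected or not, and Adra2a exceeded 62.7%. Set against the 12902 protein-coding genes that were detected, Adra1d (rank 4492 by mean TPM) and Adrb1 (5709) lay in the upper part, and Adra1b (7098), Adra2c (7947), Adra1a (8111) and Adra2a (8217) below the middle. The genes were chosen with earlier results known, and Adrb3 and Adra2b, which are not among them, were low, so the detection of the 6 is a description and no finding.

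**Figure D1:**
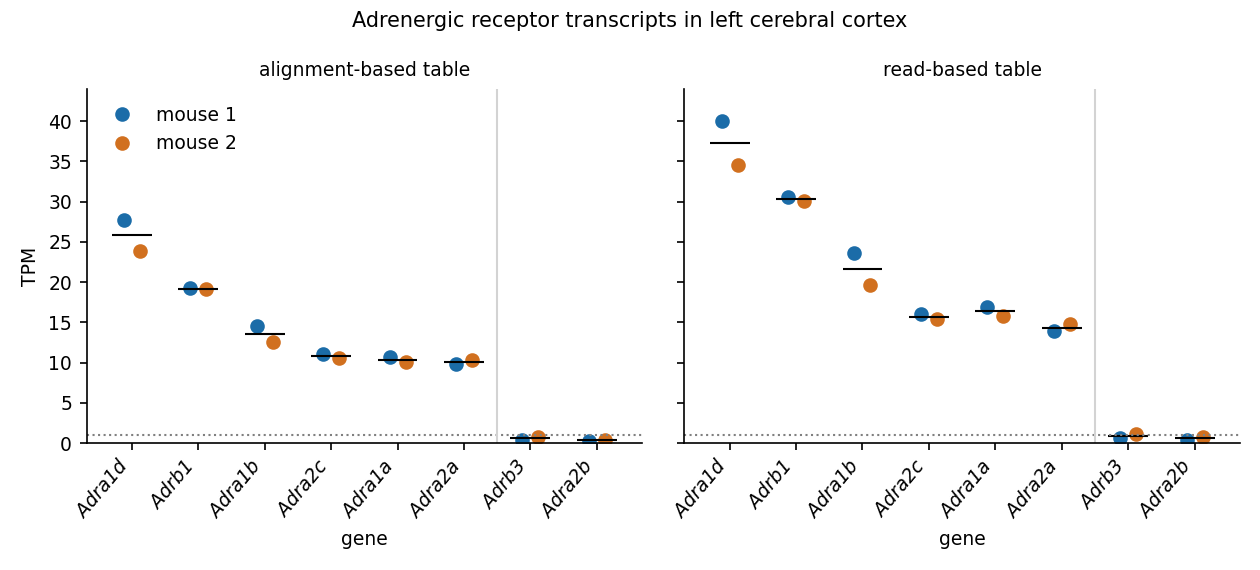
TPM (y axis) of each adrenergic receptor gene (x axis) in mouse 1 (blue) and mouse 2 (orange) in the alignment-based table (left) and the read-based table (right); black lines are the means of both mice, the dotted line is a TPM of 1, and the grey line separates the 6 genes from Adrb3 and Adra2b. Adra1d and Adrb1 lead in both tables, and Adra2c, Adra1a and Adra2a lie together near 10 in the left panel.

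Among the alpha-1 receptors, Adra1d (ENSMUSG00000027335.9, chromosome 2, 131545850 to 131562283 on the minus strand, mm10) encodes the alpha-1D receptor. Its TPM was 27.7 in mouse 1 and 23.9 in mouse 2, from 982 expected counts (95% exact Poisson interval 922 to 1045) and 792 counts (738 to 849). It was the highest of the 6 in each mouse. Adra1d has 1 annotated transcript of 1899 nucleotides in 2 exons, of which 1686 code for its 562 codons. RefSeq's model of the gene on the same build reaches 493 bases further at the 3′ side and 214 at the 5′ side, so reads there, if any, would not be in these counts. The antisense gene Gm14285 overlaps Adra1d on the other strand. It held 17 and 12 counts, and whether counting used the strand is not given in the sources used here.

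Adra1a (ENSMUSG00000045875.13, chromosome 14, 66635251 to 66771168, plus strand) encodes the alpha-1A receptor. It had a TPM of 10.66 in mouse 1 and 10.04 in mouse 2, from 832 (776 to 891) and 731 (679 to 786) counts. The 2 values were close. Its 6 transcripts fall into reading frames that share their beginning and differ in their last codons. Adra1a-202, Adra1a-201 and Adra1a-205 code for 466 codons, Adra1a-203 for 427 and Adra1a-206 for 295, while Adra1a-204 is a retained-intron transcript with no reading frame.

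The ends of these reading frames show how the receptors differ, because 1269 coding bases are common to the 466- and 427-codon frames. In the GENCODE sequences below, lower case marks the last 24 shared bases before the split and capitals mark the bases up to and including the stop codon that belong to that frame. The capitals of Adra1a-202 are chr14:66727832-66727963, a continuation of the same exon, those of Adra1a-203 are chr14:66731564-66731578 in the next exon, and those of Adra1a-206, which leaves the common frame 1 exon earlier, are chr14:66770585-66770589, all in mm10 on the plus strand.
Adra1a-202: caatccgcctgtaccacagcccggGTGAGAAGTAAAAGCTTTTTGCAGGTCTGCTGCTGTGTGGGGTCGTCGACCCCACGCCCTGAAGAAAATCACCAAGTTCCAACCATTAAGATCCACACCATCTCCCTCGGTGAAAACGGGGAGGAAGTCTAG
Adra1a-203: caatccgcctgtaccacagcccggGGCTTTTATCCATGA
Adra1a-206: cattcttcctcgtgatgcccattgCTTAG

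The longest of these ends has 132 bases of its own with its stop codon and that of Adra1a-203 has 15. Both long frames were present at similar levels. The 3 transcripts with the 466-codon end held 53.2% of the gene's TPM in mouse 1 and 48.1% in mouse 2, and Adra1a-203 held 41.7% and 44.3%. The 466-codon group was thus the larger in both mice, by 11.58 percentage points in mouse 1 and 3.8 in mouse 2. The lead in mouse 2 is uncertain, since it came from 356 against 329 counts. The deposited posterior SDs there were 25.1 counts for Adra1a-201 and 22.2 for Adra1a-203. The read-based table, quantified directly from the reads, gave 52.7% ± 0.552 and 41.0% ± 0.464 (SD, n = 2) for the same groups. Within the 466-codon group Adra1a-202, whose own exon runs on past the stop codon, carried 41.4% and 40.8%. Adra1a-206 held 1.82% ± 0.24, and the retained-intron transcript Adra1a-204 held 3.11% and 5.97%, from 23.2 and 39.1 counts. The shares of Adra1a-201 (6.21% and 2.05%) rested on 52.6 and 15.3 counts with deposited posterior SDs of 38.1 and 25.1. The read-based table gave Adra1a-201 6.46 counts in mouse 1 and 0 in mouse 2. Its level was therefore not clearly above 0 in either mouse.

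Adra1b (ENSMUSG00000050541.14, chromosome 11, 43774606 to 43901210, minus strand) encodes the alpha-1B receptor. Its TPM was 14.6 in mouse 1 and 12.5 in mouse 2, from 664 (614 to 716) and 520 (476 to 567) counts, and mouse 1 was the higher. Its 4 transcript models begin at 2 places 64878 bases apart. Adra1b-201 and Adra1b-203 begin at the distal start, and Adra1b-202 and Adra1b-204 at the proximal start. Adra1b-201 and Adra1b-204 hold the same 515-codon reading frame. Adra1b-202 is the same sequence as Adra1b-204, annotated as non-coding, and Adra1b-203 stops inside the coding part of the last exon, 1417 bases short of the others, because its end was not found.

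The sequences before these starts are shown because they differ in base composition. The RefSeq starts used here lie 27 bases (distal) and 157 bases (proximal) upstream of the GENCODE starts. Each line gives 250 bases before a RefSeq start on build GRCm38.p6 (the same assembly as mm10), 5′ to 3′ on the minus strand, with each CpG in capitals, at chr11:43901238-43901487 (distal) and chr11:43836490-43836739 (proximal).
Adra1b distal: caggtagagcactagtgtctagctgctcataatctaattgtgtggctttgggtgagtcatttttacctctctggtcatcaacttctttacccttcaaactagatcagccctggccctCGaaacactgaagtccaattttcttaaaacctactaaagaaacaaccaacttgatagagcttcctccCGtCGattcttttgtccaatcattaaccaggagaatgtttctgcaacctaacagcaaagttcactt
Adra1b proximal: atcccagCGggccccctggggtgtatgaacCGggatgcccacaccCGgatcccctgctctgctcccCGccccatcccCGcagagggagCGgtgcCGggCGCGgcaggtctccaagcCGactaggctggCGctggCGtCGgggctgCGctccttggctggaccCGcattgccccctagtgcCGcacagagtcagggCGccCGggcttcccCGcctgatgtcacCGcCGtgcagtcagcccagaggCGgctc

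The distal window has 3 CpGs and 41.6% G and C, and the proximal window 22 CpGs and 72.8%. Over 32851 RefSeq windows of the same length the median was 6 CpGs, 29.0% of windows had fewer CpGs than the distal and 85.2% fewer than the proximal window. Which start was used more could not be read from these data, because the tables differ. The alignment-based table put 37.7% ± 2.60 of the gene's counts on the distal models (SD, n = 2), whereas in the read-based table they held 81.2% ± 2.82. As shares of TPM these were 51.7% ± 2.76 and 86.5% ± 1.86, on a scale where the short Adra1b-203 model (1764 nucleotides, against 3047 for Adra1b-204) weighs more per count. Adra1b-201 had 0 counts in both mice in the alignment-based table and 273 and 173 in the read-based table. The models share 1579 bases, 335 bases belong to distal models only and 51 to proximal models only. Adra1b-202 and Adra1b-204, which no read can tell apart, received equal counts (213 each in mouse 1 and 157 each in mouse 2).

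The same incomplete model enters the level of Adra1b, since the gene's TPM sums those of its models and so depends on how counts were shared among them. With every count placed on the complete Adra1b-204, an alternative chosen after seeing the data, Adra1b stood at a TPM of 11.4 in mouse 1 and 9.60 in mouse 2. In mouse 1 that value lay above those of Adra2c, Adra1a and Adra2a, and in mouse 2 below all 3. Its mean of 10.5 ± 1.30 (SD, n = 2) lay between those of Adra2c and Adra2a.

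**Figure D2:**
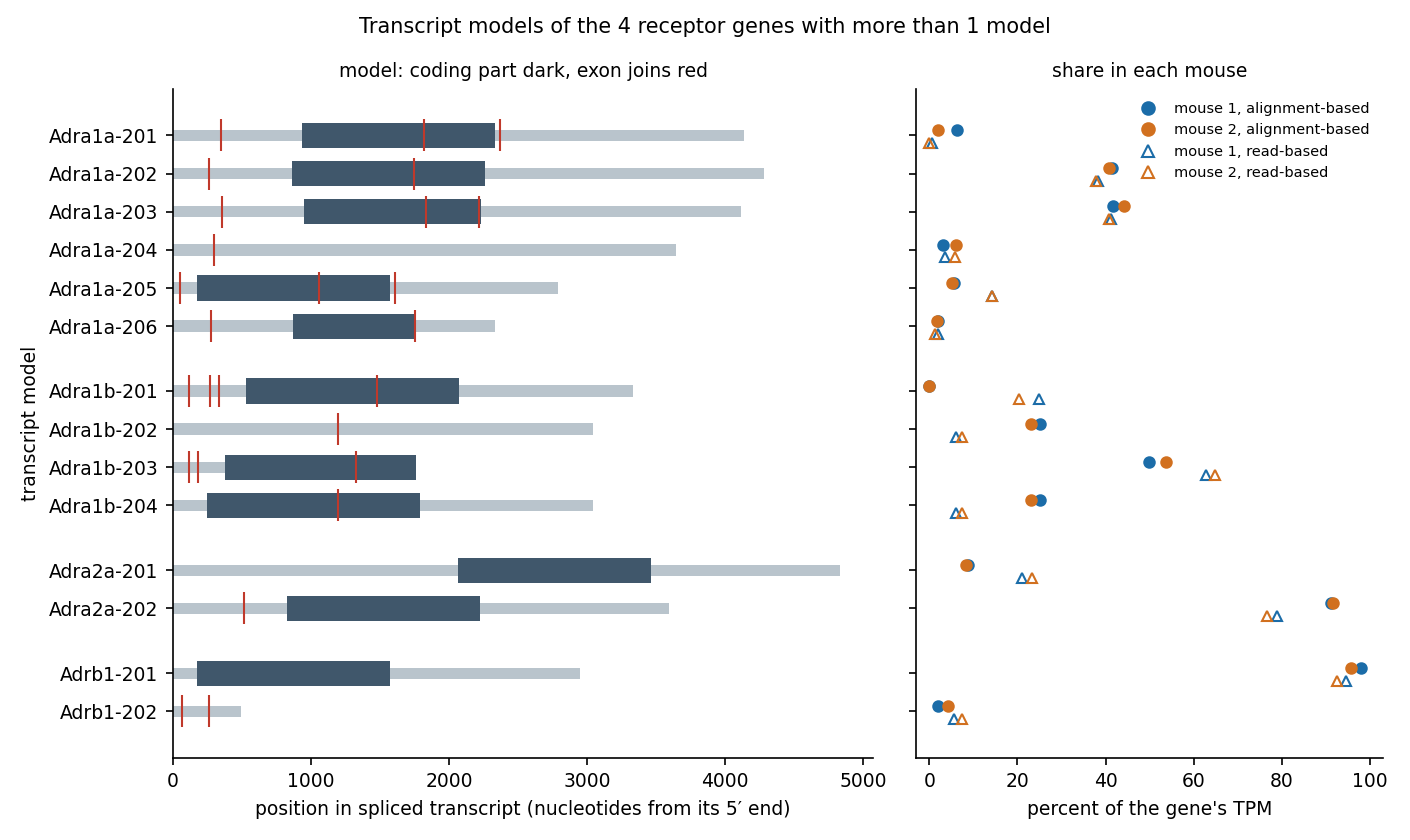
Left, transcript models of Adra1a, Adra1b, Adra2a and Adrb1 laid out by position in the spliced transcript (x axis, nucleotides), with coding parts dark and exon joins as red lines. Right, each model's percent of its gene's TPM in mouse 1 (blue) and mouse 2 (orange), as circles for the alignment-based and triangles for the read-based table. Adra1a-202 and Adra1a-203 share most of Adra1a in both tables, whereas circles and triangles part for the 4 models of Adra1b.

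Of the alpha-2 receptors, Adra2a (ENSMUSG00000033717.6, chromosome 19, 54044151 to 54048982, plus strand) encodes the alpha-2A receptor, which serves as an autoreceptor on noradrenergic axons and also sits on cortical neurons. It had a TPM of 9.89 in mouse 1 and 10.3 in mouse 2, from 701 (650 to 755) and 681 (631 to 734) counts, and was the only 1 of the 6 with a higher TPM in mouse 2. Its 2 transcripts hold the same 465-codon frame and differ in their 5′ part, with starts 1109 bases apart. Adra2a-202, from the downstream start, held 91.2% and 91.8% of the gene's TPM in the alignment-based table and 79.0% and 76.8% in the read-based table. It led in both mice in either table.

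The stretch just before that downstream start holds the letters TATAAA, which begin 29 bases before the RefSeq start. It is shown because this start carries most of the Adra2a signal, with the match in capitals, at chr19:54045218-54045247 on the plus strand of GRCm38.p6.
Adra2a: tcatcctggggcTATAAAaccagtccagcg

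TATAAA on either strand was found in 12.4% of the 32851 windows of 250 bases, and of the 5 windows listed for 4 of the receptor genes (Adra1b with 2, Adra2a, Adra2c and Adrb1) in that of Adra2a only. A match of letters is a description of the window and not a binding site.

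Adra2c (ENSMUSG00000045318.6, chromosome 5, 35278319 to 35281763, plus strand) encodes the alpha-2C receptor in a single exon of 3445 nucleotides with 458 codons. It had a TPM of 11.1 in mouse 1 and 10.6 in mouse 2, from 729 (677 to 784) and 654 (605 to 706) counts. The alpha-2 genes were level with each other, with a log2 ratio of TPM + 1 of Adra2c over Adra2a of 0.15 in mouse 1 and 0.04 in mouse 2. Both ratios were smaller than 0.47, below which 95% of protein-coding genes of similar abundance differed from mouse to mouse.

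Adrb1 (ENSMUSG00000035283.5, chromosome 19, 56722199 to 56733113, plus strand) encodes the beta-1 receptor in a single coding exon with 466 codons. It had a TPM of 19.3 in mouse 1 and 19.1 in mouse 2, from 1064 (1001 to 1130) and 964 (904 to 1027) counts, the most counts of the 6 genes. That coding transcript held 98.0% and 95.7% of its TPM, and a short non-coding transcript rested on 3 and 6 counts.

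Adrb3, the beta-3 receptor gene, and Adra2b, the alpha-2B gene, were far lower. Adrb3 had a TPM of 0.43 in mouse 1 and 0.72 in mouse 2 (18 and 25 counts), and Adra2b had 0.25 and 0.43 (19 and 30 counts). Both stayed under a TPM of 1 in each mouse, whereas Adra2a, the lowest of the 6, had a mean of 10.1.

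The order of the receptors was read from their 15 pairs, as log2 ratios of TPM + 1 within each mouse. In 7 pairs the ratio exceeded the difference seen between the mice at similar abundance (95th percentile, 20 bins of protein-coding genes) in both animals. Adra1d exceeded Adra1b by 0.88 in each mouse, and Adra2c, Adra1a and Adra2a by 1.18 ± 0.11, 1.24 ± 0.09 and 1.27 ± 0.18 (SD, n = 2). Adrb1 exceeded the same 3 genes by 0.77 ± 0.03, 0.83 ± 0.05 and 0.86 ± 0.05. In the other 8 pairs the neighbours did not differ beyond that spread. Adra1d over Adrb1 came to 0.50 in mouse 1 and 0.31 in mouse 2 against a limit of 0.38, and Adrb1 over Adra1b to 0.38 and 0.57 against 0.48. Adra1b over Adra2c was 0.29 ± 0.11, and Adra1a over Adra2a turned from 0.10 in mouse 1 to -0.03 in mouse 2. The limit covers the spread of 1 gene across mice and not errors in gene models. All 7 pairs kept their order in the read-based table. With all Adra1b counts on Adra1b-204, 8 pairs passed. The added pair was Adrb1 over Adra1b, at a mean of 0.81, so its standing depends on the Adra1b models.

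By class, the alpha-1 genes held 56.8% and 53.7% of the summed TPM of the 6 genes in mice 1 and 2, the alpha-2 genes 22.5% and 24.2%, and Adrb1 20.7% and 22.1%. Alpha-1 transcripts therefore outnumbered those of both other classes together in each mouse on this scale. As a share of expected counts, which favour long transcripts, they held less than both other classes together, with 49.8% and 47.1%. Adra1d has the shortest effective length of the 6 genes (1800 nucleotides) and Adra1a the longest (3963 in mouse 1). The summed TPM of the alpha-1 genes was 52.97 and 46.49, that of the alpha-2 genes 20.96 and 20.93.

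Between the mice no member passed a log2 ratio of 1 in TMM-scaled counts. Of the 13807 protein-coding genes whose counts averaged 20 or more 0.84% did, as did 1.74% of genes of any kind. So few genes passed that 0 of 6 says little about the receptors. With TMM scaling all 6 ratios of mouse 2 over mouse 1 were below 0, with a median of -0.14 against -0.02 over those protein-coding genes. All 6 were above 0 when the libraries were scaled to spike-in totals. The ratio was -0.32 for Adra1b (95% exact counting interval -0.49 to -0.15), -0.28 for Adra1d (-0.41 to -0.14) and -0.15 for Adra1a (-0.30 to -0.01). It was -0.12 for Adra2c, -0.11 for Adrb1 and -0.01 for Adra2a, with intervals that include 0, and that of Adra2a turned to 0.05 with scaling to library totals. The alpha-1 genes had the lowest ratios, but Adra1a lay close to Adra2c and Adrb1, so no trait of the class is read from this order. Among the 1895 protein-coding genes with mean counts from 592 to 1014, the range of the 6, the 5th percentile was -0.25 and the median size 0.10. Adra1b and Adra1d lay just beyond that percentile. Each mouse gave 1 library, so the difference has no replicate check, and in bulk tissue fewer cells of a type and less RNA per cell cannot be told apart.

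**Figure D3:**
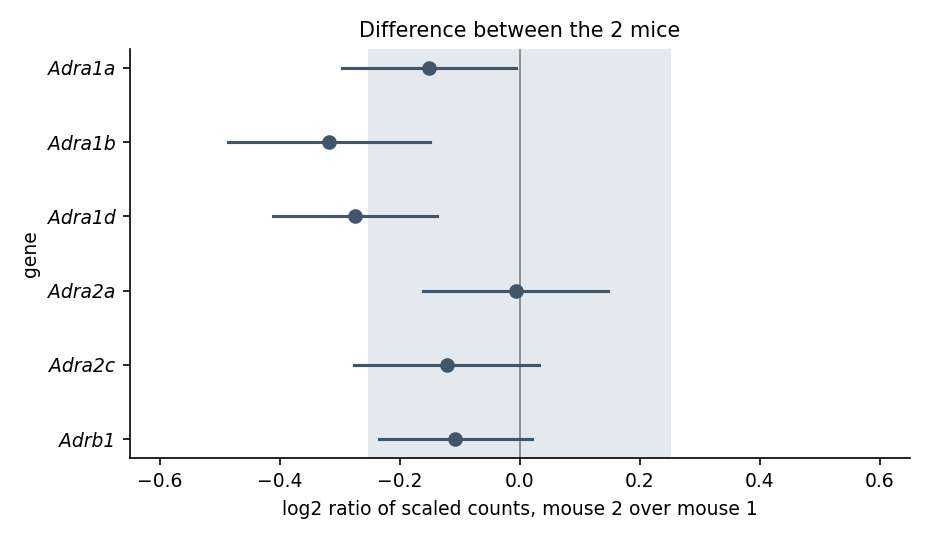
Log2 ratio of TMM-scaled expected counts in mouse 2 over mouse 1 (x axis) for each receptor gene (y axis), with 95% exact counting intervals as lines; the shaded band runs from the 5th to the 95th percentile of protein-coding genes with similar counts. Adra1b and Adra1d lie just outside the lower edge of the band, at -0.32 and -0.28.

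The markers of some cell classes had ratios as low as those of the receptors, and those of others did not. Excitatory neuron markers were all detected (7 of 7), with a summed TPM of 2782 in mouse 1 and 2624 in mouse 2 and a median log2 ratio of -0.15, below 0 in 7 of 7. Oligodendrocyte markers (5 of 5) summed to 1300.5 and 1083, with a median ratio of -0.33, below 0 in 5 of 5. For astrocyte markers (6 of 6) the sums were 1187 and 1119 and the ratio -0.10, for inhibitory neurons (7 of 7) 613 and 618 and -0.06, and for endothelial cells (4 of 4) 49.8 and 56.4 and 0.0010. Mural cell markers (5 of 6) summed to 46.4 and 42.7, yet their median ratio was 0.14 and only 1 of 6 was below 0. Median ratios were -0.0043 for markers of microglia, 0.093 for oligodendrocyte precursors and 0.27 for leptomeningeal fibroblasts. None of the markers in these lists was at 0 in both mice. Their part in the receptor ratios was not tested. Markers of striatum, a neighbouring region, were also detected (5 of 5, summed TPM 207 and 191), as were 4 of 5 of thalamus. Cortex can express these genes as well, and carry-over of tissue from these regions was not tested. Of 4 cerebellar markers 1 was detected while Barhl1 was at 0 counts in both mice, which allows up to 3.

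Most genes listed for noradrenaline synthesis, packaging and uptake were low. Of these 8 genes, 3 were detected, with a median TPM of 0.610 ± 0.0990 (SD, n = 2). The most abundant was Slc29a4, a plasma membrane monoamine transporter, at 5.73 and 7.49 in mice 1 and 2, and the least abundant of those detected was Slc22a3, an organic cation transporter, at 1.06 and 1.34. Th, the rate-limiting enzyme of catecholamine synthesis, had a TPM of 0.79 and 1.18, Dbh, which makes noradrenaline from dopamine, 0.29 and 0.18 (14 and 8 counts), and Slc6a2, the noradrenaline transporter, 0.08 and 0.05 (10 and 6 counts). Ddc, the decarboxylase of the same pathway, was detected, at 2.95 and 2.38. These 4 were picked after their values were seen. None of the 4 markers of locus coeruleus neurons reached a TPM of 1. Transcripts in axons and in cell bodies cannot be separated in such tissue.

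Of the enzymes that break catecholamines down, the monoamine oxidase genes Maoa (TPM 7.45 in mouse 1 and 7.55 in mouse 2) and Maob (7.92 and 7.21) were both detected. They lay below the 6 receptor genes.

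The signalling genes downstream of each receptor class were more abundant than the receptors, whose median TPM was 12.2. For the Gq and phospholipase C arm of alpha-1 receptors 11 of 12 genes were detected, with a median TPM of 74.5 ± 2.34. The protein kinase C gene Prkcb was the highest (487 and 432) and the phospholipase gene Plcb2 the lowest of those detected (1.38 and 1.49). For the Gi arm of alpha-2 receptors and its channels 10 of 10 were detected (median 55.0 ± 0.233), from Gnao1, the Go alpha subunit, at 318 and 327 to Gnai3 at 12.7 and 11.9. For the Gs and cyclic AMP arm of beta receptors 20 of 20 were detected (median 58.7 ± 0.435), from Gnas, the Gs alpha subunit, at 746 and 761 to the adenylyl cyclase gene Adcy8 at 8.54 and 9.92. Desensitisation and scaffold genes (12 of 12, median 41.6 ± 0.697) ran from Ppp1r9b, spinophilin, at 305 and 309 to the receptor kinase gene Grk5 at 7.61 and 6.87. Most of these genes serve many other receptors as well. In all, 60 of 68 pathway genes were detected, beside 58.6% of protein-coding genes. The lists were chosen with earlier results known, so these detection counts are a description and no finding. Of the 63 pathway genes with enough counts, 0 passed a log2 ratio of 1 between the mice, beside 0.84% of protein-coding genes.

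**Figure D4:**
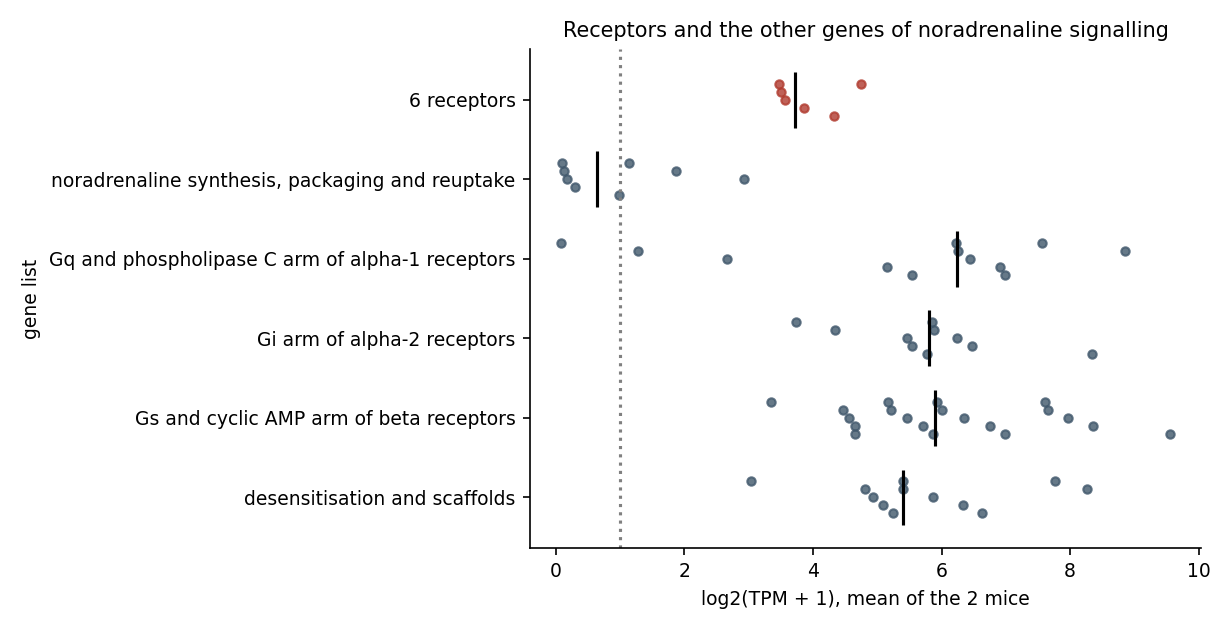
Mean log2(TPM + 1) of both mice (x axis) for the 6 receptors (red) and for the genes of 5 pathway lists (y axis, blue); each point is a gene, its height within a row has no meaning, black bars are medians and the dotted line is a TPM of 1. The genes of noradrenaline synthesis, packaging and uptake lie left of the receptors, and most genes of the 3 signalling arms lie to their right.

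The read-based table gave higher TPM for every receptor. Its ratio to the alignment-based value, on the TPM + 1 scale, was from 1.38 for Adra2a to 1.55 for Adrb1, with a median of 1.48 over the 6 genes and 1.49 over 12902 detected protein-coding genes. The receptors therefore moved with the scale of the table. Its counts were closer, from 0.986 times the alignment-based counts for Adra1d to 1.13 times for Adra1a.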

How the data were processed

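The members and gene lists were chosen with earlier results of these data known. Per the deposited listing beside the files, the authors quantified each library from a transcriptome alignment (the alignment-based gene and transcript tables) and directly from the reads (the read-based table), on mm10 with GENCODE M21. That listing names no aligner or quantifier. The deposited expected counts are estimated reads, not normalized. The deposited TPM is scaled over all rows, non-coding RNA, tRNA and spike-ins included. The deposited IsoPct gives each transcript's percent of its gene's TPM, per the file headers. Posterior SDs of counts are the authors' own.

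Transcript values of the read-based table were summed per gene. Expected counts were rounded for edgeR 4.0.16 (filterByExpr, which kept 17529 genes, then TMM) in R 4.3.3, and ratios used a prior count of 0.5. Ratios between genes used log2(TPM + 1). DESeq2 1.42.0 gave alternative size factors. Depth was 29915463 and 27988085 expected counts. Counting intervals are exact, at 95%, and cover counting error only. With 1 group of 2 mice no test was run. The libraries differed by a chi-square of 12.6 per degree of freedom over 16491 genes and were counted as separate libraries. That value cannot tell 2 animals from 2 libraries of 1 animal. Counting 2 mice rests on their separate numbers in the labels. The ratio step was tested on simulated data with changes far larger than the receptor ratios, so that test does not cover changes of their size. Named were all members, the highest and lowest detected gene of each pathway list, and genes of the shortest lists, of which some are not reported here. Sequences are from GENCODE M21 and RefSeq (GRCm38.p6). Of the 6 genes, 4 had a RefSeq promoter window. Adra1a and Adra1d are the others. Other work used Python 3.11.15 with scipy 1.17.1, pandas 2.3.3, numpy 2.4.6 and, for plots, matplotlib 3.10.9. Alternatives were another table, scaling, threshold, pseudocount, prior count or filter, and either mouse alone.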

Additional observations from a re-analysis of the deposited data

How the results depend on the processing

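No paired analysis was possible because both mice belong to 1 group. Detection of all 6 receptors held at TPM thresholds of 0.1 and 5, in the read-based table, after rescaling TPM over protein-coding genes of the nuclear genome, and with either mouse left out, and the count of pathway genes detected stayed within 1.5 times of 60. The median receptor TPM of 12.2 became 27.0 when rescaled and 19.0 in the read-based table. As shares of expected counts the alpha-1 class held 48.4% and the alpha-2 class 29.8%, and in the read-based table the beta class held 22.4%. In that table the transcript shares were 41.0% for Adra1a-203, 63.8% for Adra1b-203, 86.5% for both distal Adra1b models, 77.9% for Adra2a-202 and 93.5% for the coding transcript of Adrb1. The order of neighbours turned for Adra2c over Adra1a in the read-based table (-0.056) and for Adra1b over Adra2c with all counts on Adra1b-204 (-0.045). Scaling to spike-in totals moved all genes up by 0.40 in mouse 2 and turned all 6 receptor ratios from below to above 0, to 0.25 for Adra1a, 0.081 for Adra1b, 0.12 for Adra1d, 0.39 for Adra2a, 0.28 for Adra2c and 0.29 for Adrb1. No receptor passed a ratio of 1 in any of the 7 alternatives tried. The count of protein-coding genes that did was 116, against 321 with spike-in totals, 30 on the log2(TPM + 1) scale, which shrinks low genes, and 1760 without a filter on low counts. With 2 mice, either value alone always lies within 1 SD of their mean, so leaving out a mouse says nothing of stability. It turned the order of Adra1a over Adra2a without mouse 1 (-0.03).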
